A study of Homo sapiens with 48 samples.

Results

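Long intergenic non-coding RNA genes that carry only a serial LINC number were followed through knockdown of the RNA helicase UPF1. The set was taken by name and level: rows called LINC followed by digits, with a mean of at least 0.5 CPM (counts scaled to a common library total) over all 48 libraries. Of 57820 genes in the deposited table, 553 had such a name, and 91 of these passed the level. Another 305 had counts below it and 157 had no count in any library. Since the overall level chose the members, their levels are given as a description. Just inside the limit were LINC00324 at 0.533 CPM, LINC00674 at 0.518 CPM and LINC00312 at 0.506 CPM, and just outside it LINC00621 at 0.476 CPM, LINC00304 at 0.461 CPM and LINC00535 at 0.446 CPM. The mean was under 0.5 CPM in the siUPF1 libraries for 3 members and in the siNT libraries for 2, LINC00674 and LINC00941. All 91 members passed the filter on low counts and were tested.

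The study asked how control of the UPF1 ATPase bears on how well nonsense-mediated decay of mRNA (NMD) works. It used stable lines of Flp-In 293 T-REx, a derivative of the human embryonic kidney line HEK293 that takes a transgene at a fixed genomic site. The 6 mutant lines carried CLIP-tagged UPF1 with the change K498A, DE636AA, R843C, A546H, GA-KH or E797R, the line WT carried CLIP-tagged wild-type UPF1, and the line CLIP carried the CLIP tag. All lines kept their endogenous UPF1 gene. Each was reverse-transfected with an siRNA against UPF1 (siUPF1) or a non-targeting siRNA (siNT) at 40 nM and harvested after 72 h, with 3 libraries per line and siRNA that the series calls biological triplicates. RNA was depleted of ribosomal RNA and sequenced in pairs.

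UPF1 is the central helicase of NMD. The pathway degrades RNAs on which a ribosome stops well upstream of an exon junction, a position at which the exon junction complex is still bound when translation ends. K498A and DE636AA alter the motifs of UPF1 that bind and hydrolyse ATP, while the labels do not describe the other 4 changes. Long intergenic RNAs are spliced and capped like mRNAs, many reach the cytoplasm and meet ribosomes on short reading frames, and some genes first numbered as LINC were later found to encode small proteins.

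The stop codons below are shown because a spliced RNA with a junction far behind a stop has the layout on which NMD is known to act. They end the longest frame that starts with ATG in 1 chosen GENCODE 29 transcript of each of 6 members whose rise with siUPF1 differed between WT and CLIP (below). Lower case gives the last 15 codons before the stop, and capitals mark the stop codon. Nothing in the data shows whether these frames are translated.

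LINC00511: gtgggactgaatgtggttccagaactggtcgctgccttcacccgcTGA
LINC00839: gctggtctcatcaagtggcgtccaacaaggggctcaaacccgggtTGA
LINC00338: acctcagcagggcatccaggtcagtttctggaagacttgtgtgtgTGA
LINC00969: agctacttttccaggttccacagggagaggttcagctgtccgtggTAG
LINC01001: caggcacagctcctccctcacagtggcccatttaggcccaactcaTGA
LINC00174: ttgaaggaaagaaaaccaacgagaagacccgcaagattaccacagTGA

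Each transcript is the one with the longest frame among those with a junction more than 50 nt behind its stop, and other transcripts of these genes can hold longer frames without one. Transcripts of that layout were 51 of 106 for LINC00511, 2 of 2 for LINC00839, 4 of 18 for LINC00338, 58 of 142 for LINC00969, 1 of 3 for LINC01001 and 6 of 12 for LINC00174. The last exon junction lay 726 nt behind the stop in LINC00511, 334 nt in LINC00839, 75 nt in LINC00338, 294 nt in LINC00969, 770 nt in LINC01001 and 434 nt in LINC00174. Those frames held 112, 188, 64, 176, 389 and 78 codons in the same order. Over all members, 83 were found in GENCODE 29 by their identifiers, 12 of them with 1 exon only, and 48 of the 83 (57.8%) had a transcript with a junction more than 50 nt behind the stop of its longest frame.

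Another 2 members of that group, LINC01002 and LINC00999, were not found in GENCODE 29. The RefSeq promoter of LINC01002 is shown with that of LINC01001 because the pair are near-identical copies there. Most of each window lies before the start, and the likeness of the 2 transcripts was not measured. Whether reads of the 2 genes were shared, which would make their counts uncertain, is therefore not known. Capitals mark the letters TGANTCA, the AP-1 motif. The windows are chr19:202160-202459 (LINC01002) and chr11:131804-132103 (LINC01001) of GRCh38.p14, both on the minus strand, from 250 bases before the start to 50 after it.

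LINC01002: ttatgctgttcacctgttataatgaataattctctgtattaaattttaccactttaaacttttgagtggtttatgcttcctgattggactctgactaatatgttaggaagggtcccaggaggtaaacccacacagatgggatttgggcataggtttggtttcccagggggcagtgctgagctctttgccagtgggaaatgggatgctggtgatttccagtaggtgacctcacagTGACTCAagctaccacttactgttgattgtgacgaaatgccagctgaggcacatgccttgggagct
LINC01001: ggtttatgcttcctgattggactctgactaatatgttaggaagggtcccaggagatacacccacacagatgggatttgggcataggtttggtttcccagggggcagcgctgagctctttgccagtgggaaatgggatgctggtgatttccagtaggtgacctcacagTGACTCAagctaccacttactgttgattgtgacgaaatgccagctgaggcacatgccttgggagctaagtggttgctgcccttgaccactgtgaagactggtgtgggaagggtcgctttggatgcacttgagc

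Aligned, they shared 230 identical bases in 233 columns (98.7%). TGANTCA, read on both strands, stood in 7 of the 71 member promoters found (9.86%) and in 7.76% of all 27305 RefSeq promoters of that length. The other motifs searched on both strands were TGATGNAA, in 2.82% of member promoters and 3.67% of all, TGACGTCA, in 2.82% and 1.98%, and CACGTG, in 9.86% and 7.43%.

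Members' levels were uneven. LINC00657, now NORAD, an abundant cytoplasmic RNA that binds Pumilio proteins and guards genome stability, averaged 627 CPM, where all members together summed to 1245 CPM, and its share of that sum averaged 50.2% over the libraries. The next in CPM were LINC00665 at 63.7, LINC00969 at 46.7, LINC00338 at 28.3, LINC00998 at 27.9, LINC00094 at 26.6, LINC00662 at 25.8 and LINC00909 at 19.7. Per kb of annotated exon the order after LINC00657, at 117 CPM per kb, was LINC00998 at 14.7, LINC00493 at 11.3 and LINC00665 at 8.85 CPM per kb. The median member had 2.95 CPM. In all, 20 members reached 10 CPM, 50 lay between 1 and 10 CPM and 21 below 1 CPM.

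Not every member is an intergenic non-coding RNA today. RefSeq holds 90 of the 91, of which 35 have a new name and 14 are annotated as protein coding. Those 14 include LINC00116 (MTLN), LINC00998 (SMIM30), LINC00493 (SMIM26), LINC00176 (C20orf204) and LINC00617 (TUNAR). In GENCODE 29, 54 members overlap another gene, 35 on the same strand and 41 on the opposite one, and the strand setting of the counting was not given in the sources used here. Shared sequence also limits some counts. At least 20% of the 31-base words of 14 members occur in another gene, with a median of 6.12% over members. That share was 90.9% for LINC01001, 56.4% for LINC00657, 42.6% for LINC00240, 21.4% for LINC00969 and 21.5% for LINC00674.

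UPF1 itself, the target of the siRNA, had 18.2, 36.8 and 17.7 CPM in CLIP siUPF1 libraries, against 105, 106 and 113 CPM in CLIP siNT libraries (log2 fold change −2.17, SE 0.17, edgeR adjusted p = 3.88e-13). In the 7 lines with a UPF1 transgene it ran from 3695 to 8235 CPM with siUPF1, against 4027 to 6238 CPM with siNT. None of those 7 changes was called (log2 −0.15 to 0.36), and transgene and endogenous reads were counted together. One library stood apart: CLIP siUPF1 replicate 2 had the highest UPF1 level of its group and 0.631% of its counts on mitochondrially encoded genes, against 2.32% and 2.13% in replicates 1 and 3. Responses in CLIP are given with all libraries, and also without this one where the call changed or a printed log2 value moved by more than 0.14. Library totals were 21.3 to 47.1 M expected counts. The kidney and HEK293 genes PAX2 and NEFM averaged 5.44 and 1.66 CPM, and LHX1 ran from 2.42 to 6.12 CPM. Of the 9 genes given here as markers of other cell types, DCN, PTPRC, HBB, CDH5, ALB and MYH7 averaged 0.0592 CPM or less. The epithelial gene EPCAM averaged 87.2 CPM, and the collagen genes COL1A1 and COL3A1 averaged 2.37 and 5.04 CPM.

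Knockdown moved LINC genes in both directions in every line. With siUPF1, 24 of 91 members rose and 13 fell in K498A, 20 rose and 17 fell in DE636AA, 20 rose and 14 fell in R843C, and 19 rose and 13 fell in A546H. GA-KH had 9 members higher and 12 lower, E797R 14 and 13, WT 9 and 16, and CLIP 21 and 19. A call here is a Benjamini-Hochberg adjusted p under 0.05 in edgeR's quasi-likelihood test over 19129 genes. Since these are bulk samples, fewer cells of a type and less RNA per cell cannot be told apart.

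Those counts read differently against all genes. In K498A, 26.4% of members rose against 16.1% of all genes tested, and 14.3% fell against 16.4%, with 32.6% of all genes called. DE636AA had 22.0% of members higher against 16.7% of all genes, and 18.7% lower against 17.6%, with 34.3% called. R843C had 22.0% higher against 17.6%, and 15.4% lower against 14.7%, with 32.3% called. A546H had 20.9% higher against 17.2%, and 14.3% lower against 15%, with 32.2% called. In these 4 lines the share of members that rose lay above that of all genes, with the widest gap in K498A. Members were chosen by level, and genes of low level were called less often. Of the 16245 genes tested at a mean of at least 0.5 CPM, 18% rose in K498A, 18.3% in DE636AA, 19.9% in R843C and 19.4% in A546H. Against these the gaps in R843C and A546H were small, and none was tested. In GA-KH, 9.89% of members rose against 14.5% of all genes and 13.2% fell against 13.8%, with 28.3% called. E797R had 15.4% higher against 15.9%, and 14.3% lower against 13.5%, with 29.4% called. The WT line had 9.89% higher against 13.9%, and 17.6% lower against 13.2%, with 27.2% called. CLIP, the line with the most calls, had 23.1% higher against 25.1%, and 20.9% lower against 22.3%, with 47.3% called. The members' shares in CLIP, GA-KH and E797R were thus close to or below the background. Of the genes at 0.5 CPM or more, 28.1% rose in CLIP, 16.4% in GA-KH, 17.8% in E797R and 15.8% in WT, each above the members' share.

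Fewer genes of low level were called. Among genes at a mean of 0.5 to 5 CPM, 58 members were set beside all 4321 genes tested. In K498A, 22.4% of these members rose against 10.9% of the genes, in R843C 17.2% against 9.4%, in DE636AA 17.2% against 11.6%, in E797R 12.1% against 8.68%, and in A546H 12.1% against 9.23%. The shares in E797R and A546H rest on 7 of 58 members each, those in R843C and DE636AA on 10 each and that in K498A on 13. In E797R and A546H the gap to the genes was small, and none of these gaps was tested. The gap in CLIP was small at this level (15.5% against 14.5%), and in WT it was 5.17% of members against 6.92% of the genes. In GA-KH it was 5.17% against 7.68%. Falls covered 15.5% of these members in K498A against 16.8% of the genes, and 19% in CLIP against 23.3%. They covered 19% in DE636AA against 18.1%, 15.5% in R843C against 16.9%, and 17.2% in A546H against 16.6%. In GA-KH it was 10.3% against 15.4%, in E797R 12.1% against 15.2%, and in WT 15.5% against 14.8%.

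**Figure D1:**
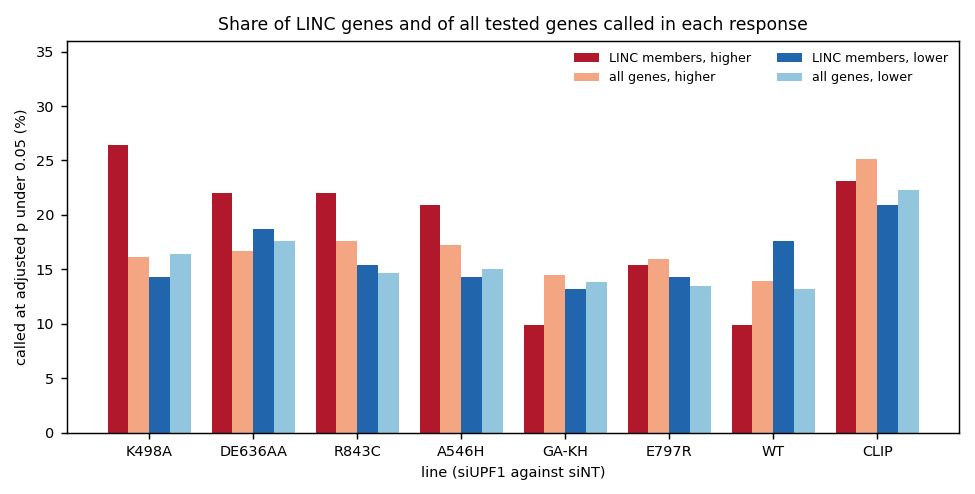
Percent of genes (y axis) called higher (red and orange bars) or lower (dark and light blue bars) with siUPF1 against siNT in each of the 8 lines, for the 91 LINC members (dark) and all 19129 genes tested (light), by edgeR at an adjusted p under 0.05. In K498A 26.4% of members were higher against 16.1% of all genes, while in WT the members' share was 9.89% against 13.9%.

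Medians stayed near 0. The members' median log2 fold change was 0.08 in K498A, lay between −0.08 and −0.02 in DE636AA, R843C, A546H and GA-KH, and was −0.13 in E797R and −0.11 in both WT and CLIP, and over all genes it ran from −0.02 to 0.02. Without CLIP siUPF1 replicate 2 the median in CLIP was −0.02, with 20 members higher, 18 of them called with all libraries, and 21 lower, 15 of them called with all libraries, against 41.0% of all genes called. The calls lost were LINC00115, LINC00116 and LINC01003 among rises, and LINC00094, LINC00240, LINC00493 and LINC01004 among falls. Those gained were the rises of LINC00657 and LINC00669 (log2 0.89) and the falls of LINC00085 (−0.48), LINC00614 (−1.41), LINC00638 (−0.95), LINC00649 (−0.53), LINC00894 (−0.59) and LINC00937 (−0.76).

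Other non-coding sets and known NMD targets moved otherwise. Of 18 commonly used NMD targets, all 18 rose in CLIP with a median log2 fold change of 1.00, and 1 rose and 1 fell in WT with a median of −0.09. The target list was chosen with earlier results of these data known, so its counts are a description. It names SNHG1, SNHG12 and SNHG15 and is thus not independent of the SNHG genes below. Among the mutants, 15 of these targets rose in R843C, 12 in DE636AA, 10 in K498A, 8 in A546H and 2 each in GA-KH and E797R. Of 13 snoRNA host genes named SNHG, 3 rose and none fell in WT (median 0.04), and 10 rose and 1 fell in CLIP (median 0.91). Among antisense RNA genes at the same level more fell than rose: of 242, 18 rose and 54 fell in WT, and 29 rose and 83 fell in CLIP. The LINC members lay between, with nearly even numbers in each direction in CLIP. Of all genes tested, 13.9% rose and 13.2% fell in WT, and 25.1% rose and 22.3% fell in CLIP. Nearly even numbers were thus also seen over all genes, and no set was tested against them.

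**Figure D2:**
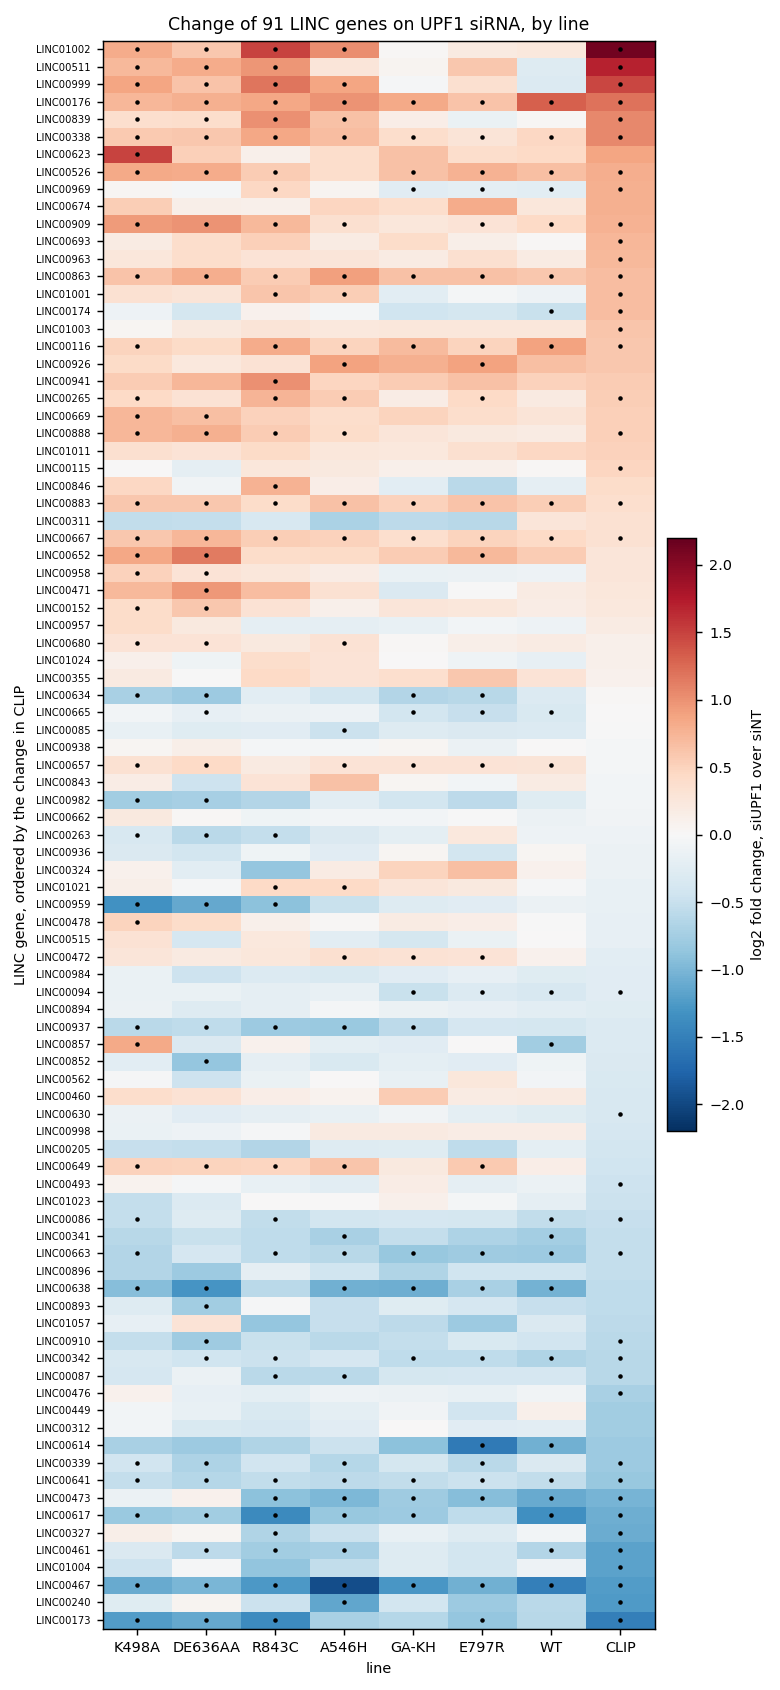
Log2 fold change (siUPF1 over siNT, colour scale) of the 91 members, 1 per row and ordered by the change in CLIP, in the 8 lines (columns); dots mark changes called by edgeR. Dots of 1 direction fill all 8 columns for 5 members in the upper part and 2 in the lower part, while 16 members have a single dot.

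Calls spread over many genes. At least 1 response was called for 68 members, 37 of them higher and 34 lower somewhere, and 3 (LINC00969, LINC00174 and LINC00857) in both directions. A single line accounted for the call in 16 members. The remaining 23 were never called, among them the abundant LINC00998 and LINC00662. Matching counts over lines were not made for all genes, of which 27.2% (WT) to 47.3% (CLIP) were called per line. Lines with the ATPase-motif changes called many of the same members higher: 19 were shared, 79.2% of the 24 in K498A and 95.0% of the 20 in DE636AA. R843C and CLIP shared 16 higher members, 80.0% of the 20 in R843C and 76.2% of the 21 in CLIP. WT and CLIP shared 8, 88.9% of the 9 in WT and 38.1% of the 21 in CLIP.

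A group of 8 LINC genes rose in CLIP and rose less, fell or were not called in WT, with LINC01002, LINC00511 and LINC00999 showing the widest gaps. The question is whether a wild-type transgene changes the response, and it was tested as the difference of the 2 responses, WT minus CLIP. That difference was called lower for 9 members and higher for 1, or 9.89% and 1.1% of members against 7.99% and 3.72% of all genes, with 11.7% of all genes called. The members' share in the lower direction was near the background. Of the 21 members that rose in CLIP, 8 rose in WT, 11 were not called there and 2 fell, and 8 had a difference called lower: LINC01002, LINC00511, LINC00999, LINC00839, LINC00338, LINC00969, LINC01001 and LINC00174. The last 2 were named after their values were seen.

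LINC01002 gave the largest rise. It had 6.71, 6.66 and 9.62 CPM in WT siUPF1 libraries, against 6.49, 6.94 and 5.91 CPM in WT siNT libraries. In CLIP it had 18.6, 36.3 and 18.3 CPM with siUPF1, against 6.09, 6.33 and 4.35 CPM with siNT. The WT groups overlapped, while all CLIP siUPF1 libraries lay above all CLIP siNT libraries, with the high value in replicate 2. The log2 fold change was 0.24 in WT (adjusted p = 0.405) and 2.12 in CLIP (SE 0.19, adjusted p = 8.01e-12; 1.72 without CLIP siUPF1 replicate 2), and the difference was −1.88 (SE 0.27, adjusted p = 2.84e-06), or −1.495 without CLIP siUPF1 replicate 2 (adjusted p = 4.51e-06).

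LINC00511, an RNA studied mainly in tumours, and LINC00999 followed. LINC00511 had 0.929, 0.463 and 0.981 CPM in WT siUPF1 libraries, against 1.03, 0.616 and 1.22 CPM with siNT, and 1.86, 2.60 and 1.68 CPM in CLIP siUPF1 libraries, against 0.757, 0.605 and 0.520 CPM with siNT. LINC00999 had 1.70, 1.79 and 1.68 CPM in WT siUPF1 libraries, against 1.96, 2.40 and 2.04 CPM with siNT, and 4.60, 4.14 and 5.02 CPM in CLIP siUPF1 libraries, against 1.48, 1.84 and 1.66 CPM with siNT. For both genes the CLIP groups were apart, and in WT the siUPF1 libraries of LINC00999 all lay slightly below the siNT libraries without a call. LINC00511 changed by −0.28 in WT and 1.69 in CLIP on the log2 scale (difference −1.98, SE 0.38, adjusted p = 0.000235, or −1.79 without CLIP siUPF1 replicate 2, where the rise in CLIP was 1.495). LINC00999 changed by −0.31 in WT and 1.46 in CLIP (difference −1.77, SE 0.27, adjusted p = 1.06e-05).

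LINC00839 had 2.65, 2.90 and 2.61 CPM in WT siUPF1 libraries, against 2.47, 2.77 and 2.75 CPM with siNT, and 5.27, 8.20 and 5.68 CPM in CLIP siUPF1 libraries, against 2.99, 2.78 and 3.35 CPM with siNT. The difference was −1.03 (SE 0.20, adjusted p = 0.000339), and −0.83 without CLIP siUPF1 replicate 2, which held the highest value. LINC00338, now SNHG20, belongs to the snoRNA host type of gene. It rose in both lines, to 27.2, 27.9 and 37.3 CPM in WT siUPF1 libraries, against 21.0, 22.7 and 23.7 CPM with siNT, and to 41.1, 45.8 and 44.9 CPM in CLIP siUPF1 libraries, against 21.2, 20.4 and 21.7 CPM with siNT. Its log2 rise was 0.45 in WT (SE 0.10, adjusted p = 0.000952) and 1.06 in CLIP (SE 0.10, adjusted p = 6.8e-11), a difference of −0.61 (SE 0.15, adjusted p = 0.00349). Its rise in E797R (0.29) lost the call in 5 of 6 fits without 1 library.

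**Figure D3:**
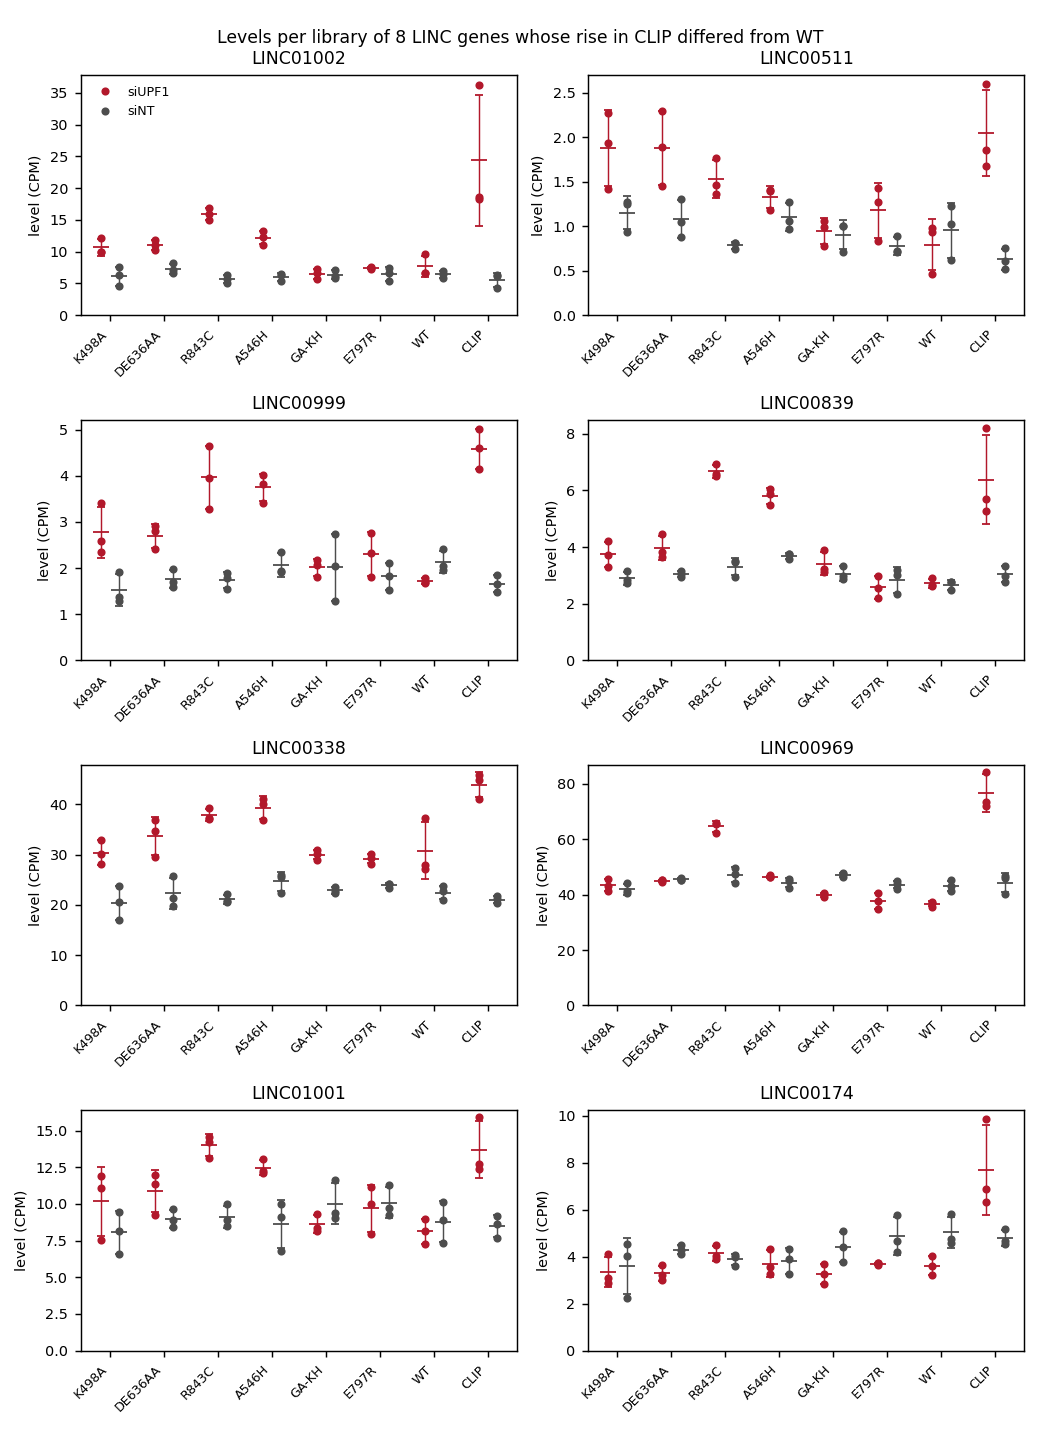
CPM of the 8 members whose rise in CLIP differed from the response in WT, by line; points are libraries, bars are mean ± SD (n = 3), siUPF1 in red left of siNT in grey. For LINC01002 the CLIP siUPF1 libraries reach 18.3 to 36.3 CPM, while those of GA-KH, E797R and WT overlap the siNT libraries of their line.

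LINC00969 and LINC00174 rose in CLIP and fell in WT. LINC00969, now MIR570HG, a miRNA host gene, had 37.1, 37.3 and 35.6 CPM in WT siUPF1 libraries, against 43.1, 45.1 and 41.4 CPM with siNT, and 71.8, 84.3 and 73.5 CPM in CLIP siUPF1 libraries, against 46.8, 45.8 and 40.2 CPM with siNT. No siUPF1 library overlapped the siNT libraries of its line, below them in WT and above them in CLIP. The log2 fold change was −0.23 in WT (SE 0.07, adjusted p = 0.00611) and 0.79 in CLIP (SE 0.07, adjusted p = 8.91e-13), a difference of −1.02 (SE 0.09, adjusted p = 1.93e-10). LINC00174 had 3.58, 3.21 and 4.02 CPM in WT siUPF1 libraries, against 5.80, 4.75 and 4.58 CPM with siNT, and 6.88, 9.86 and 6.32 CPM in CLIP siUPF1 libraries, against 5.19, 4.68 and 4.55 CPM with siNT. Its log2 fold change was −0.49 in WT (adjusted p = 0.0406) and 0.67 in CLIP (adjusted p = 0.00165), a difference of −1.16 (SE 0.25, adjusted p = 0.00123). Without CLIP siUPF1 replicate 2 the rise in CLIP was 0.46 and the difference −0.96, both still called. The fall in WT lost its call in 4 of the 6 fits that left out 1 WT library, with log2 values from −0.56 to −0.38.

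LINC01001, whose promoter shares a near-identical stretch with that of LINC01002, had 8.97, 8.17 and 7.24 CPM in WT siUPF1 libraries, against 8.92, 10.1 and 7.33 CPM with siNT, and 15.9, 12.4 and 12.7 CPM in CLIP siUPF1 libraries, against 8.62, 9.19 and 7.70 CPM with siNT. The difference of −0.79 (SE 0.22, adjusted p = 0.0126) lost its call without WT siNT replicate 2 (adjusted p = 0.0574). LINC00665, second among members in CPM, differed through WT: it fell there by 0.33 on the log2 scale, to 48.2, 50.3 and 53.0 CPM with siUPF1, against 61.8, 63.5 and 64.6 CPM with siNT. In CLIP it had 64.7, 71.8 and 67.8 CPM with siUPF1, against 67.6, 66.6 and 68.9 CPM with siNT, a log2 change of 0.01 that was not called. The difference was −0.33 (SE 0.09, adjusted p = 0.0125).

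The 1 difference called higher was LINC00327, with 1.30, 1.33 and 1.40 CPM in WT siUPF1 libraries, against 1.06, 1.57 and 1.56 CPM with siNT, and 0.491, 0.649 and 0.881 CPM in CLIP siUPF1 libraries, against 1.12, 1.71 and 1.56 CPM with siNT. It fell by 1.10 in CLIP on the log2 scale (SE 0.24, adjusted p = 0.000262), and the difference of 1.03 (SE 0.33, adjusted p = 0.0354) lost its call in 7 of the 12 fits without 1 library (0.84 to 1.29 over all 12). All 9 lower differences held without CLIP siUPF1 replicate 2, LINC00327 did not (0.99, adjusted p = 0.0729), and LINC00888 (−0.66) and LINC00909 (−0.50) were added, so that 11 were lower and none higher.

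**Figure D4:**
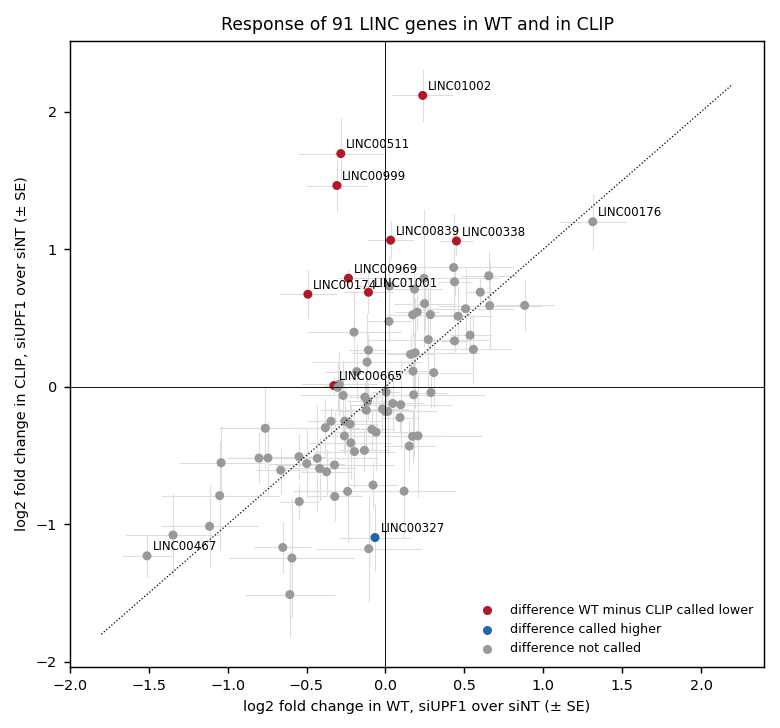
Log2 fold change (siUPF1 over siNT) of the 91 members in WT (x axis) and CLIP (y axis) with SE bars; red and blue mark members whose difference WT minus CLIP was called lower and higher, and the dotted line marks equal responses. LINC01002, LINC00511 and LINC00999 lie far above the line, and LINC00176 and LINC00467 lie near it.

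The exon layout of these members was set beside the rest as a description, since the group was chosen by its response. Of the 8 members that rose in CLIP with a difference called lower, 6 were in GENCODE 29, and 6 of the 6 had a transcript with a junction more than 50 nt behind the stop, against 42 of the 77 other members (54.5%). Over all members, the layout was found in 13 of 18 that rose in CLIP (72.2%), in 9 of 18 that fell and in 26 of 47 that were not called (55.3%). The layout was thus also common among members that did not rise. Of the 77 other members, 12 had 1 exon only and could not have it, against 0 of the 6. A gene with more annotated transcripts also has more chances to hold 1 of this layout. LINC00969 had 142 transcripts and LINC00511 106, while LINC00839 had 2 and LINC01001 3. The comparison was not adjusted for either.

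The mutant lines divided over these genes. LINC01002 rose in K498A (log2 0.81), DE636AA (0.59), R843C (1.48) and A546H (1.02), and was not called in GA-KH (0.03) or E797R (0.21). In R843C it had 15.0, 16.8 and 15.9 CPM with siUPF1, against 5.73, 6.36 and 5.04 CPM with siNT, and in A546H 11.1, 13.2 and 12.3 CPM with siUPF1, against 5.30, 6.30 and 6.47 CPM with siNT. Both pairs of groups were apart. In DE636AA the call was lost without siNT replicate 1 (adjusted p = 0.0573). LINC00999 and LINC00839 rose in the same 4 mutant lines, by 0.62 to 1.18 and by 0.36 to 1.01 on the log2 scale, and neither was called in GA-KH (−0.02 and 0.15) or E797R (0.35 and −0.14). LINC00511 rose in K498A (0.71), DE636AA (0.81) and R843C (0.96) but was not called in A546H (0.27). In K498A and DE636AA the calls of LINC00511 were lost in 3 and 2 of 6 fits without 1 library, and those of LINC00839 in 4 and 3. LINC00969 rose in R843C alone among the transgene lines (0.45, adjusted p = 6e-07), with 65.6, 66.0 and 62.1 CPM with siUPF1, against 44.3, 47.4 and 49.7 CPM with siNT. It fell in GA-KH (−0.24, adjusted p = 0.00438) and E797R (−0.21, adjusted p = 0.013), as in WT, the call in E797R being lost without siNT replicate 1 or siUPF1 replicate 3.

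Tests of each mutant's response against that of WT, which share the WT libraries with each other and with the comparison of WT and CLIP, called few members. R843C differed in 4, all higher (4.4% of members, against 1.65% of all genes higher, 0.256% lower and 1.9% in all). They were LINC00999 (1.49, SE 0.27, adjusted p = 0.000854), LINC01002 (1.24, SE 0.27, adjusted p = 0.00485), LINC00839 (0.98, SE 0.20, adjusted p = 0.00264) and LINC00969 (0.69, SE 0.09, adjusted p = 7.74e-06). Each was called in all fits without 1 library. A replicate block added LINC00511 (1.23, adjusted p = 0.0484) and LINC01001 (0.72, adjusted p = 0.0213), against 2.96% of all genes called. LINC00999 had 4.65, 3.96 and 3.28 CPM in R843C siUPF1 libraries, against 1.88, 1.55 and 1.79 CPM with siNT, and LINC00839 6.58, 6.51 and 6.92 CPM, against 2.95, 3.46 and 3.502 CPM. For all 4 genes the R843C groups were apart.

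K498A differed from WT in 3 members, all higher (against 1.43% of all genes higher, 1.79% lower and 3.22% in all): LINC00857 (1.60, SE 0.39, adjusted p = 0.0137), LINC00999 (1.18, SE 0.28, adjusted p = 0.00918) and LINC00958 (0.61, SE 0.17, adjusted p = 0.0392). LINC00857 had 0.682, 1.29 and 0.746 CPM in K498A siUPF1 libraries, against 0.346, 0.665 and 0.516 CPM with siNT, and 0.478, 0.278 and 0.374 CPM in WT siUPF1 libraries, against 0.583, 0.740 and 0.611 CPM with siNT. The groups were apart in both lines and in opposite directions, at low levels. The difference lost its call without K498A siNT replicate 1 (1.36), K498A siUPF1 replicate 2 (1.26), WT siNT replicate 2 (1.48) or WT siUPF1 replicate 2 (1.41), and that of LINC00958 was lost in 10 of 12 such fits (0.56 to 0.66 over all 12). For LINC00958, K498A siUPF1 libraries had 7.73, 7.77 and 7.05 CPM, against 5.24, 5.67 and 5.02 CPM with siNT. With the replicate number as a block, 5 members were called, against 5.26% of all genes, the added ones being LINC00909 (0.50, adjusted p = 0.0298) and LINC00969 (0.28, adjusted p = 0.0293).

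DE636AA differed in 3 members, 2 higher and 1 lower (against 1.76% and 2.71% of all genes, and 4.47% in all). LINC00852 fell in DE636AA by 0.86 on the log2 scale, to 2.21, 2.15 and 2.05 CPM with siUPF1, against 3.94, 3.995 and 3.68 CPM with siNT, while in WT it had 3.48, 3.61 and 3.13 CPM with siUPF1, against 3.57, 3.51 and 3.803 CPM with siNT (difference −0.77, SE 0.21, adjusted p = 0.0227). LINC00909, an abundant member, had 27.1, 24.4 and 26.8 CPM in DE636AA siUPF1 libraries, against 13.9, 12.6 and 12.8 CPM with siNT, and 19.7, 18.7 and 24.3 CPM in WT siUPF1 libraries, against 15.5, 15.4 and 15.3 CPM with siNT (difference 0.56, SE 0.15, adjusted p = 0.0209). LINC00999 was the third (0.93, SE 0.28, adjusted p = 0.0432). The call of LINC00852 was lost without WT siNT replicate 1 or 2 or WT siUPF1 replicate 2 (−0.76 to −0.72). That of LINC00909 was lost without DE636AA siNT replicate 2 or 3, DE636AA siUPF1 replicate 1, or WT siUPF1 replicate 1 or 2 (0.49 to 0.54), and that of LINC00999 in 10 of 12 fits (0.83 to 1.02 over all 12). With the replicate block 5 members were called, against 7.35% of all genes, the added ones being LINC00473 (1.21, adjusted p = 0.0334) and LINC00263 (−0.49, adjusted p = 0.0405).

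A546H differed from WT in LINC00999 alone (1.17, SE 0.27, adjusted p = 0.0487, lost in 11 of 12 fits without 1 library, with 1.07 to 1.27 over all 12), against 0.225% of all genes higher, 0.0314% lower and 0.256% in all. GA-KH and E797R differed from WT in no member and in 0 of all 19129 genes. With DESeq2 no member was called either, and 0 members in GA-KH and 4 in E797R had an unadjusted p under 0.05 in edgeR. Those unadjusted counts are given without the like counts over all genes.

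Another group of LINC genes rose with siUPF1 in every line, whatever UPF1 the line carried. LINC00176, LINC00863, LINC00883, LINC00667 and LINC00338 were called higher in all 8 lines. The share of all genes called in all 8 lines was not counted, so this number has no background beside it. LINC00176, now C20orf204 and annotated as protein coding, had 4.35, 6.60 and 6.30 CPM in WT siUPF1 libraries, against 2.30, 2.56 and 2.04 CPM with siNT, and 4.77, 8.72 and 4.22 CPM in CLIP siUPF1 libraries, against 3.06, 2.17 and 2.44 CPM with siNT. Groups were apart in both lines, and the log2 rise was 1.31 in WT (SE 0.21, adjusted p = 5.01e-06) and 1.20 in CLIP (SE 0.21, adjusted p = 6.64e-06), or 0.82 without CLIP siUPF1 replicate 2 (adjusted p = 0.000578). In the 6 mutant lines it was 0.64 to 0.99. Its call was lost in E797R without siNT replicate 3 (0.44) or siUPF1 replicate 2 (0.56) and in K498A without siNT replicate 1 (0.59).

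LINC00863 was the steadiest of them, rising by 0.56 to 0.91 on the log2 scale (SE 0.09 in each line) and called in every fit without 1 library. It had 13.7, 14.7 and 15.5 CPM in A546H siUPF1 libraries, against 7.70, 6.82 and 8.87 CPM with siNT, and 11.3, 13.3 and 12.6 CPM in CLIP siUPF1 libraries, against 7.71, 7.34 and 8.09 CPM with siNT. LINC00883, now DUBR, is known in mouse as an RNA of muscle cell differentiation. It rose to 6.71, 6.20 and 6.54 CPM in WT siUPF1 libraries, against 4.50, 4.41 and 4.52 CPM with siNT. Its log2 rise was 0.37 to 0.65 over the 8 lines, and that in CLIP lost its call without siNT replicate 3 (0.30) or siUPF1 replicate 3 (0.31).

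LINC00667 rose by 0.33 to 0.73, the least in CLIP, where siUPF1 replicate 2 had 16.2 CPM and overlapped the siNT libraries. It overlaps LINC00526 on the opposite strand in GENCODE 29, so reads of the pair may have been shared. LINC00526 was called higher in 7 lines (0.56 to 0.83) and not in A546H (0.39, adjusted p = 0.0901). LINC00909 was also called higher in 7 lines, all but GA-KH (0.25, adjusted p = 0.0745), by 0.99 in DE636AA (adjusted p = 1.28e-09) and 0.44 in WT. LINC00888, a member that rose in K498A, DE636AA, R843C, A546H and CLIP, was named after its values were seen. In CLIP without siUPF1 replicate 2 the rise was 0.92 for LINC00909, 0.82 for LINC00888 and 0.47 for LINC00667, against 0.76, 0.52 and 0.33 with all libraries.

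LINC00467 and LINC00641 fell in all 8 lines and kept every call without 1 library. LINC00467, reported to encode a small mitochondrial protein, had 2.06, 2.19 and 2.40 CPM in A546H siUPF1 libraries, against 9.25, 6.79 and 9.69 CPM with siNT. It had 3.00, 2.81 and 2.01 CPM in WT siUPF1 libraries, against 7.34, 7.64 and 7.64 CPM with siNT, and 3.86, 2.27 and 3.95 CPM in CLIP siUPF1 libraries, against 8.29, 6.77 and 8.90 CPM with siNT. No siUPF1 library reached the siNT range in these lines. The log2 fall was 1.95 in A546H (adjusted p = 4.37e-12), 1.51 in WT (adjusted p = 1.75e-09) and 1.23 in CLIP (adjusted p = 2.14e-08; 1.03 without siUPF1 replicate 2), and 1.01 to 1.28 in the other lines. LINC00641 had 16.9, 16.6 and 14.7 CPM in WT siUPF1 libraries, against 23.7, 25.3 and 21.5 CPM with siNT, and 15.5, 9.98 and 13.3 CPM in CLIP siUPF1 libraries, against 23.7, 23.6 and 22.1 CPM with siNT. Its log2 fall was 0.47 to 0.63 in the transgene lines and 0.84 in CLIP, where siUPF1 replicate 2 was lowest, or 0.69 without it.

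**Figure D5:**
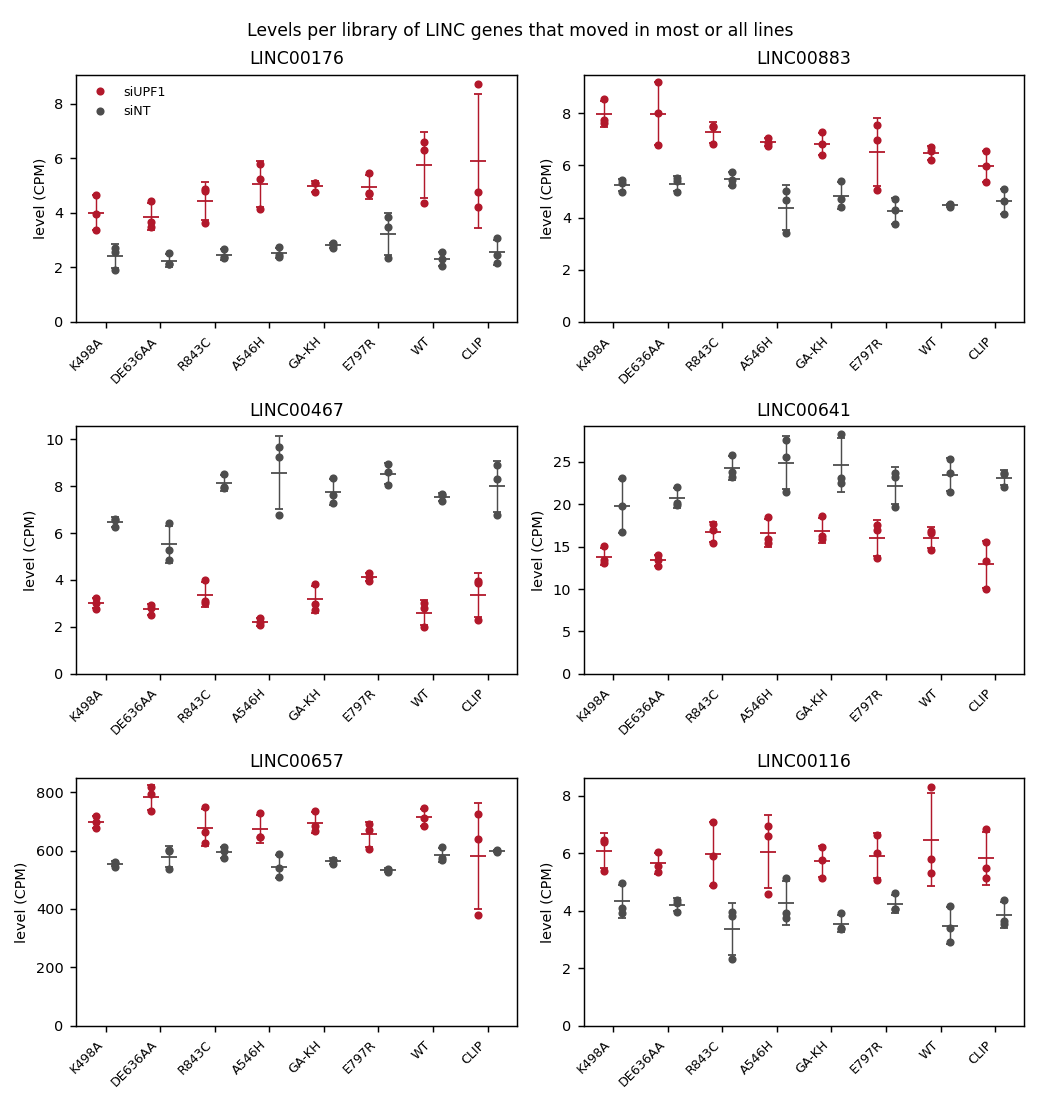
CPM by line of LINC00176, LINC00883, LINC00467, LINC00641, LINC00657 and LINC00116; points are libraries, bars are mean ± SD (n = 3), siUPF1 in red left of siNT in grey. LINC00467 is lower with siUPF1 in every line, at 2.06 to 2.40 CPM in A546H siUPF1 libraries, against 6.79 to 9.69 CPM with siNT, and 1 CLIP siUPF1 library of LINC00657 lies at 379 CPM.

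Falls in 5 to 7 lines were called for 9 members: LINC00617 and LINC00663 in 7, LINC00638, LINC00473 and LINC00342 in 6, and LINC00173, LINC00461, LINC00339 and LINC00937 in 5. How many of all genes fell in as many lines was not counted. LINC00342 changed by −0.66 to −0.35 over the 8 lines, LINC00339 by −0.80 to −0.32 and LINC00937 by −0.81 to −0.30. LINC00617, now TUNAR, an RNA of pluripotent and neural cells, had 0.902, 0.925 and 1.45 CPM in WT siUPF1 libraries, against 2.27, 2.44 and 3.43 CPM with siNT. It fell by 1.40 in R843C, 1.35 in WT and 1.08 in CLIP on the log2 scale, and the call in CLIP was lost without siNT replicate 3 (−0.78), and those in K498A, DE636AA, A546H and GA-KH in 4 of 6 fits each. LINC00473, which cAMP signalling through CREB is known to induce, was called lower in R843C, A546H, GA-KH, E797R, WT (−1.11, adjusted p = 0.00535) and CLIP (−1.02, adjusted p = 0.00462; −1.24 without siUPF1 replicate 2). In K498A and DE636AA its log2 change was −0.13 and 0.09, with 1.60, 2.27 and 2.14 CPM in DE636AA siUPF1 libraries, against 1.44, 2.62 and 1.62 CPM with siNT, so that the groups overlapped. The difference from WT was not called for LINC00473 in either line. For DE636AA minus WT it was 1.21 (edgeR adjusted p = 0.0699), called only with the replicate block. LINC00638 fell in 6 lines, most in DE636AA (−1.30, adjusted p = 0.000172), and in CLIP only without siUPF1 replicate 2, and LINC00663 in all but DE636AA.

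LINC00173 fell most in CLIP, to 0.737, 0.446 and 0.400 CPM with siUPF1, against 1.41, 1.68 and 1.40 CPM with siNT (log2 −1.51, SE 0.32, adjusted p = 0.000132), and was not called in WT (−0.61, adjusted p = 0.117). A difference between these 2 responses was not called. LINC00240 also fell in CLIP (−1.25, adjusted p = 0.0161) with a count of 0 in siUPF1 replicate 2, and the call was lost without that library (−0.76) or siNT replicate 3 (−0.97). In A546H its fall of 1.14 lost the call in 5 of 6 fits without 1 library.

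Some changes were called in 1 to 3 lines. LINC00959, now C10orf143, fell in K498A to 0.298, 0.439 and 0.508 CPM with siUPF1, against 1.09, 0.897 and 1.10 CPM with siNT (log2 −1.32, adjusted p = 0.000509), in DE636AA (−1.13) and in R843C (−0.91), and changed by −0.12 in WT and −0.17 in CLIP (−0.47 without CLIP siUPF1 replicate 2) without a call. LINC00623 rose in K498A alone (1.49, adjusted p = 0.00201), with 1.43, 1.21 and 2.87 CPM with siUPF1, against 0.693, 0.868 and 0.344 CPM with siNT. The groups were apart, with replicate 3 at both extremes. LINC00652 rose in K498A (0.86), DE636AA (1.15, adjusted p = 0.000233) and E797R (0.70). LINC00614 fell in E797R (−1.56, adjusted p = 0.00256) and WT (−1.05, adjusted p = 0.0315, lost in 5 of 6 fits without 1 library), LINC00926 rose in A546H and E797R (0.88 in each) and LINC00471 in DE636AA (0.95, adjusted p = 0.0354, lost in 4 of 6 fits without 1 library, and 0.59 without siNT replicate 2). Whether these lines differ from the lines without a call was tested only against WT, where none of those genes was called.

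NORAD (LINC00657), the most abundant member in CPM and per kb, rose in 6 of the 8 lines. A stretch of its transcript, bases 1399 to 1458 of 5339, is shown for the elements by which NORAD is known to bind Pumilio proteins. Capitals mark 2 copies of the Pumilio element TGTANATA, of 15 in the transcript.

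LINC00657: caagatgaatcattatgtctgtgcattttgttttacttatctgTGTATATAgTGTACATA

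Of the 83 members with a GENCODE 29 transcript, 66 had no such element and the next highest had 2. LINC00657 has 1 exon, so no junction follows its stop codons. It had 795, 818 and 736 CPM in DE636AA siUPF1 libraries, against 600, 602 and 536 CPM with siNT, and 712, 745 and 685 CPM in WT siUPF1 libraries, against 569, 574 and 612 CPM with siNT. In CLIP it had 727, 379 and 639 CPM with siUPF1, against 596, 599 and 601 CPM with siNT. Groups were apart in DE636AA and WT, and in CLIP siUPF1 replicate 2 lay far below all other libraries. The log2 rise was called in 6 lines, 0.43 in DE636AA (SE 0.11, adjusted p = 0.00193), 0.33 in K498A, 0.31 in A546H, 0.30 in GA-KH and E797R and 0.29 in WT (adjusted p = 0.0476). It was 0.19 in R843C (adjusted p = 0.191) and −0.04 in CLIP (adjusted p = 0.778), or 0.19 in CLIP without replicate 2 (adjusted p = 0.0324). Only DE636AA kept its call in every fit without 1 library, and GA-KH, E797R and WT lost it in 5 of 6 each, with log2 values of 0.25 to 0.35.

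Summed over the 91 members, in CPM of plain library totals, the level was 1469 ± 38.7 CPM in DE636AA siUPF1 libraries, against 1223 ± 7.52 CPM with siNT, and 1357 ± 37.2 CPM in K498A siUPF1 libraries, against 1155 ± 40.3 CPM (mean ± SD, n = 3). WT had 1275 ± 17.7 CPM with siUPF1, against 1193 ± 15.6 CPM, and CLIP 1221 ± 170 CPM, against 1192 ± 17.8 CPM. In these lines LINC00657 held a large part of the sum. Without it the sum was 663 ± 13.4 CPM in DE636AA siUPF1 libraries, against 637 ± 24.8 CPM, 569 ± 31.7 CPM in WT siUPF1 libraries, against 607 ± 14.7 CPM, and 653 ± 7.77 CPM in CLIP siUPF1 libraries, against 595 ± 15.7 CPM. The wide spread of the CLIP siUPF1 sum was therefore also that of LINC00657.

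Members now annotated as protein coding moved in both directions. Of these 14, not all of which are small-protein genes, 2 rose (14.3%) and 4 fell (28.6%) in WT, against 13.9% and 13.2% of all genes, and 2 rose (14.3%) and 5 fell (35.7%) in CLIP, against 25.1% and 22.3%. LINC00116, now MTLN, encodes mitoregulin, a microprotein of the mitochondrial membrane. Its frame of 56 codons is shown as a microprotein frame with a junction 140 nt behind the stop. Whether this layout bears on the gene's rise was not tested. It is the longest frame in 2 of the 3 annotated transcripts, and the third has a longest frame of 417 nt that is not shown. Capitals mark start and stop codons (GENCODE 29).

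LINC00116: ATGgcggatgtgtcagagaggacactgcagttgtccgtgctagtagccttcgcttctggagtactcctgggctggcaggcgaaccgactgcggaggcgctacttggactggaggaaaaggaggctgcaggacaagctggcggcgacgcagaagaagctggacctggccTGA

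LINC00116 had 5.79, 5.30 and 8.31 CPM in WT siUPF1 libraries, against 4.15, 2.90 and 3.40 CPM with siNT, and 5.48, 6.86 and 5.12 CPM in CLIP siUPF1 libraries, against 4.36, 3.66 and 3.54 CPM with siNT. Groups were apart in both lines. It was called higher in 7 lines, by 0.88 in WT (SE 0.18, adjusted p = 0.000295), 0.82 in R843C and 0.59 in CLIP (adjusted p = 0.00724), and not in DE636AA (0.42, adjusted p = 0.0661), where the replicate block gave a call (0.43, adjusted p = 0.0317). The calls in K498A, A546H and E797R were lost in 4 of 6 fits without 1 library. Without CLIP siUPF1 replicate 2 the rise in CLIP was 0.46 (adjusted p = 0.0587). With all libraries the difference WT minus CLIP was 0.29 and not called. LINC00998 (SMIM30), a small membrane protein gene, was called in no line (−0.36 to 0.20, the lowest being CLIP, with 0.01 there without siUPF1 replicate 2). It had 30.0, 8.80 and 29.4 CPM in CLIP siUPF1 libraries, against 29.3, 28.4 and 30.5 CPM with siNT, so that replicate 2 alone was low. LINC00493 (SMIM26), of the same kind, fell in CLIP by 0.46 (adjusted p = 0.0159), again with replicate 2 lowest at 4.99 CPM, against 10.5 to 14.9 CPM with siNT, and by 0.19 without it, no longer called, nor without siNT replicate 1 (−0.32).

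Host genes of microRNAs formed a further group. RefSeq places 15 miRNA genes inside 9 members on the same strand. LINC00461 (MIR9-2HG) hosts a copy of miR-9, a microRNA of the nervous system, and LINC00478 (MIR99AHG) and LINC00085 (SPACA6) host paralogous clusters with shared seeds. Mature 5p sequences are shown with the seed, bases 2 to 8, in capitals (RefSeq, GRCh38.p14), and their own levels were not measured.

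hsa-miR-9-5p: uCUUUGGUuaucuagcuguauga
hsa-miR-99a-5p: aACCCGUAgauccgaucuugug
hsa-miR-99b-5p: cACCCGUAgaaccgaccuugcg
hsa-let-7c-5p: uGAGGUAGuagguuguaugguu
hsa-let-7e-5p: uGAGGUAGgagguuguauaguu
hsa-miR-125b-5p: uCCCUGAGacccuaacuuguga
hsa-miR-125a-5p: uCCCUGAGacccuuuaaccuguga

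The first of each like-seeded pair lies in LINC00478 and the second in LINC00085. LINC00461 fell to 1.67, 1.85 and 1.68 CPM in WT siUPF1 libraries, against 2.40, 2.56 and 3.23 CPM with siNT, and to 1.40, 0.690 and 1.44 CPM in CLIP siUPF1 libraries, against 2.78, 2.59 and 2.76 CPM with siNT. All siUPF1 libraries lay below the siNT libraries. The log2 fall was 0.65 in WT (adjusted p = 0.00533, lost without siNT replicate 3) and 1.17 in CLIP (SE 0.19, adjusted p = 1.92e-06; 0.92 without siUPF1 replicate 2), and LINC00461 also fell in DE636AA, R843C and A546H. With all libraries each of the paralogous hosts was called in 1 line: LINC00478 rose in K498A (0.48, adjusted p = 0.0337) and LINC00085 fell in A546H (−0.47, adjusted p = 0.0395), both lost in 4 of 6 fits without 1 library. Without CLIP siUPF1 replicate 2 LINC00085 also fell in CLIP (−0.48, adjusted p = 0.0055), against −0.0052 with it. LINC00472, host of miR-30 genes, rose in A546H, GA-KH and E797R by 0.29 to 0.35.

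Of the remaining well-studied members, LINC00152 (CYTOR), an RNA studied mainly in tumours, rose in K498A (0.41, adjusted p = 0.0245) and DE636AA (0.59, adjusted p = 0.00123) and was not called in WT (0.16) or CLIP (0.24). LINC01021 (PURPL), an RNA induced by p53, rose in R843C (0.44, adjusted p = 0.0264) and A546H (0.43, adjusted p = 0.0291) and changed by −0.02 in WT and −0.16 in CLIP (0.06 without CLIP siUPF1 replicate 2). Neither was called in a test of the difference from WT.

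With siNT, that is without knockdown, LINC genes were called against CLIP in 1 of the 7 lines, DE636AA: 4 members were higher than in CLIP and none lower (4.4% of members, against 0.721% of all genes higher, 0.648% lower and 1.37% in all). LINC01011 had 1.46, 1.85 and 2.10 CPM in DE636AA siNT libraries, against 0.937, 0.908 and 1.04 CPM in CLIP siNT libraries (log2 0.90, SE 0.22, adjusted p = 0.0326). LINC00963 had 14.4, 21.0 and 19.9 CPM, against 12.1, 11.2 and 11.1 CPM (0.68, SE 0.18, adjusted p = 0.0407). The groups of both genes were apart. LINC00086 and LINC00649, named after their values were seen, were higher by 0.63 each. Without any 1 of the 3 CLIP siNT libraries, or without DE636AA siNT replicate 2 or 3, each of the 4 calls was lost. Over the 6 fits without 1 library LINC01011 differed by 0.78 to 1.04 and LINC00963 by 0.58 to 0.84.

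No member was called between the siNT libraries of the other lines and CLIP, where the share of all genes called was 0.0366% for K498A, 0.0889% for R843C, 0.125% for A546H, 0.0575% for GA-KH, 0.0261% for E797R and 0.0314% for WT (0.0157% in each direction). At an unadjusted p under 0.05, edgeR had 17 members for K498A, none for R843C, 8 for A546H, 1 for GA-KH, 2 for E797R and 5 for WT. The like counts over all genes are not given here, so these numbers say nothing about the members in particular. DESeq2 called 1 member in K498A and 0 in each of the other 5. With the replicate block LINC00086 (0.67, adjusted p = 0.0142) and LINC01011 (0.84, adjusted p = 0.0322) were called in K498A, against 1.05% of all genes, and LINC00649 in A546H (−0.80, adjusted p = 0.0481), against 0.403%. The 7 comparisons share the CLIP siNT libraries.

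Leaving out single libraries removed a good part of the weaker calls. Of 253 calls of a member in a line's response, 144 were made in every fit that left out 1 of the 6 libraries and 109 were lost in at least 1, with no change of sign. Of the 21 differences between responses, 13 were called in every such fit.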

How the data were processed

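Each of the 48 libraries had 1 column of expected counts per gene in the deposited table. Per the submitters' processing notes the tools were cutadapt, STAR, RSEM and DESeq2 with hg19; their versions, roles, the annotation release and the strand setting are not given in the sources used here. Of the deposited expected counts, 10.273% were not whole, and all were rounded. Filtering by filterByExpr over the 16 groups left 19129 genes, with at least 99.94% of the counts of each library.

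In R 4.3.3, edgeR 4.0.16 (TMM, factors 0.974 to 1.04) fitted a robust quasi-likelihood model with 1 term per group to all 48 libraries. The 22 comparisons were 8 responses (siUPF1 against siNT), the difference of response WT minus CLIP, 6 differences of a mutant's response minus that of WT, and 7 comparisons of siNT libraries with CLIP. Each was adjusted by Benjamini-Hochberg over all genes. CPM of single libraries in the text are TMM-scaled, while the membership limit, the levels averaged over all 48 libraries, the marker levels and the sums over members used plain column totals. SE is the model's standard error of a log2 fold change. No 2 replicate libraries agreed within sampling noise (lowest chi-square per gene 3.74 over 48 pairs), and totals were 21.3 to 47.1 M. Fits were tested on simulated data.

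Same-numbered siUPF1 and siNT libraries deviated together with r over 0.1 in all 3 pairs in 5 lines (WT, K498A, DE636AA, R843C and GA-KH). The other 3 lines had fewer such pairs, with 0.422, 0.0923 and 0.449 in A546H. The fit without a block was kept as the main one, although a block added calls of members and removed none (below). That block was shared by all lines, so pairing within a line was not modelled. Blocked counts are given beside the comparisons of mutant lines whose counts they move most. Alternatives were DESeq2 1.42.0 and its size factors, no filter, a replicate block, only the groups compared, and leaving out each library. Members and lists were chosen with earlier results of these data known. Named genes were the most abundant 8, the members next to the level limit, the called members of largest change with libraries apart (8 in each direction in CLIP, 3 in other lines), the 2 highest and lowest called members of other comparisons, members called in all 8 lines, and short lists of microprotein and well-studied LINC genes. LINC01420, LINC00961 and LINC00948 of the microprotein list and LINC00261 of the well-studied list were not members. Others are said to be chosen after their values were seen, or stand within a group that is described whole. Sequences and gene types came from GENCODE 29 and RefSeq on GRCh38, so no hg19 position is printed. Python 3.11.15 and Biopython 1.88 read them. One gene of the cell identity marker list is not reported here.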

Additional observations from a re-analysis of the deposited data

Results flagged for a closer look

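Results were flagged where an interaction term in edgeR, fitted over all 19129 genes, showed that the response to siUPF1 differed between 2 lines. Values are differences of log2 fold changes.

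Between WT and CLIP (WT minus CLIP) the difference was −1.98 for LINC00511, −1.88 for LINC01002, −1.77 for LINC00999, −1.16 for LINC00174, −1.03 for LINC00839, −1.02 for LINC00969, −0.79 for LINC01001, −0.61 for LINC00338, −0.33 for LINC00665 and 1.03 for LINC00327. LINC00969 and LINC00174 were called in opposite directions in the 2 lines.

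Between mutant lines and WT (mutant minus WT) it was 1.60 for LINC00857, 1.18 for LINC00999 and 0.61 for LINC00958 in K498A, and −0.77 for LINC00852, 0.56 for LINC00909 and 0.93 for LINC00999 in DE636AA. In R843C it was 1.49 for LINC00999, 1.24 for LINC01002, 0.98 for LINC00839 and 0.69 for LINC00969, and in A546H it was 1.17 for LINC00999. LINC00999 thus appeared in all 4 of these lines, in tests that share the WT libraries.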

How the results depend on the processing

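Counts of called members (of 91) when only the groups compared were fitted were: CLIP response 20 (40 in the full fit), WT minus CLIP 5 (10), DE636AA minus WT 1 (3), A546H minus WT 0 (1), and with siNT DE636AA 2 (4), E797R 1 (0) and K498A 1 (0). Of all 19129 genes, 3543 (9057 in the full fit) were called in the CLIP response, 493 (2240) for WT minus CLIP and 467 (855) for DE636AA minus WT. For A546H minus WT it was 6 (49), and with siNT 372 (262) in DE636AA, 115 (5) in E797R and 45 (7) in K498A. Without a filter on low counts the members called were 1 for K498A minus WT (3), 0 for DE636AA minus WT, 0 for A546H minus WT, and with siNT 1 for K498A and 2 for DE636AA. Of the 38722 genes then tested, 469 (616 in the full fit) were called for K498A minus WT and 704 (855) for DE636AA minus WT. For A546H minus WT it was 153 (49), and with siNT 339 (7) in K498A and 764 (262) in DE636AA. DESeq2 called 1 member with siNT in K498A. The summed member level of 1245 CPM was 618 CPM without LINC00657. The cause of these shifts was not tested. Leaving out 1 library gave 22 to 37 calls in K498A (22 without siNT replicate 3), 20 to 30 in A546H (20 without siUPF1 replicate 1), 15 to 25 in E797R (15 without siNT replicate 3), 1 to 3 for K498A minus WT, 0 to 3 for DE636AA minus WT (0 without WT siUPF1 replicate 2), 0 to 1 for A546H minus WT, and 0 to 7 with siNT in DE636AA (7 without siNT replicate 1). CLIP had 36 to 44, WT 19 to 22 and WT minus CLIP 9 to 14. All genes called were 5183 in K498A without siNT replicate 3, 5062 in A546H without siUPF1 replicate 1 and 4498 in E797R without siNT replicate 3. The full fit called 6230, 6151 and 5624. For DE636AA minus WT without WT siUPF1 replicate 2, 785 genes were called (855 in the full fit). With siNT in DE636AA without siNT replicate 1 it was 1116 (262).

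Same-numbered siUPF1 and siNT libraries deviated together with r from −0.0306 to 0.544, over 0.1 in 19 of 24 pairs, and what the numbers mark is not given in the labels. Over the 22 comparisons a replicate block added 44 calls of members, 32 of them in responses, and removed none. It gave 5 calls for K498A minus WT, 5 for DE636AA minus WT, 2 with siNT in K498A and 1 in A546H, 45 in CLIP and 11 for WT minus CLIP. Of all genes, 51.1% were then called in CLIP and 16.6% for WT minus CLIP, against 47.3% and 11.7% without the block.

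Of 1429 alternative values for 43 named genes, 1296 kept direction and call, 120 lost the call, 5 gained one and 8 changed sign, all of the last uncalled with all libraries. In CLIP without siUPF1 replicate 2 these were LINC00657 at 0.1873, LINC00665 at −0.0322, LINC00998 at 0.0142, LINC00662 at 0.06, LINC00478 at 0.0698 and LINC01021 at 0.0594. Without CLIP siUPF1 replicate 1 they were −0.2157, 0.0681, −0.5829, −0.1544, −0.392 and −0.4192 in the same order, the other ends of their ranges. LINC00665 was also −0.0145 without the filter and −0.0039 without CLIP siNT replicate 2.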
